A study of Glycine max with 8 samples.

Results

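Soybean (Glycine max) carries small families of genes for the enzymes that lead into isoflavones, and 9 of these genes were followed here in nodules, the root organs that house nitrogen-fixing rhizobia. They comprise 6 chalcone synthase genes (CHS1, CHS2, CHS6, CHS7, CHS8 and CHS9), the chalcone isomerase gene CHI1A and the isoflavone synthase genes IFS1 and IFS2. They were chosen by name and identifier with no threshold on their values, from 43517 genes in the deposited tables. The choice was made with earlier results of these data known. All 9 passed the filter on low counts and are among the 29508 genes tested. The RNA came from nodules of plants grown at low nitrogen, a condition that both groups share. Group BR was inoculated with the strains labelled Bac.B and Bra.Q2, and group R with Bra.Q2 only. Each group held 4 libraries, named BR1 to BR4 and R1 to R4, and the comparison asks what changes in nodule transcripts when Bac.B is present. The labels give neither plant age nor time after inoculation and do not say if each library stands for its own plant or culture; p-values therefore reflect only how these libraries vary, and that variation may be technical.

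Chalcone synthase joins coumaroyl-CoA and malonyl-CoA into a chalcone, the first committed step of all flavonoids. Chalcone isomerase closes the chalcone ring to a flavanone, and isoflavone synthase, a monooxygenase found mostly in legumes, moves the aryl group of the flavanone to give the isoflavone skeleton. In soybean, isoflavones secreted by the root induce the nodulation genes of rhizobia, and in the plant they are also the precursors of the glyceollins, antimicrobial compounds made on infection.

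Library totals ranged from 15133989 to 17287964 counts in BR and from 14223489 to 15266510 in R. The R libraries differed more among themselves than the BR libraries did. Correlations of log2 CPM (CPM, counts relative to the library total after TMM scaling) over all tested genes were 0.955 to 0.981 within BR and 0.903 to 0.975 within R. On the first principal component, with 48.6% of the variance, the BR libraries scored -62.2 to -51.1, whereas R1 and R2 scored 29.1 and -3.1 and R3 and R4 95.9 and 102.5. On the second, with 22% of the variance, R1 and R2 stood apart at -51.7 and -91.5, against 9.1 to 36.2 for the other 6 libraries. Results are therefore also given without R1 and R2 and without R3 and R4, alternatives chosen after the data had been seen. Fewer cells of a type and less RNA per cell cannot be told apart in whole nodules. The nodule label was not checked against leghemoglobins, because the reference table used here holds none of the deposited identifiers.

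The chalcone synthase genes differed widely in level, from rank 153 for CHS7 to rank 28738 for CHS6 among the 39910 genes with FPKM. The levels below are FPKM, fragments per kilobase of gene and per library total, as deposited. CHS7 (Glyma.01G228700.Wm82.a2.v1, on chromosome 1) was the most abundant of the 9, with a mean of 342.8 FPKM over the 8 libraries. IFS1 (Glyma.07G202300.Wm82.a2.v1, chromosome 7) followed with 250.4 FPKM, at rank 243. CHS8 (Glyma.11G011500.Wm82.a2.v1, chromosome 11) had 105.3 FPKM and IFS2 (Glyma.13G173500.Wm82.a2.v1, chromosome 13) 76.5 FPKM. CHI1A (Glyma.20G241500.Wm82.a2.v1, chromosome 20) had 60.02 FPKM and CHS1 (Glyma.08G109400.Wm82.a2.v1, chromosome 8) 39.3 FPKM. CHS2 (Glyma.05G153200.Wm82.a2.v1, chromosome 5) had 11.75 FPKM and CHS9 (Glyma.08G109500.Wm82.a2.v1, next to CHS1 in identifier order) 8.18 FPKM. CHS6 (Glyma.09G075200.Wm82.a2.v1, chromosome 9) was close to silent at 0.475 FPKM, or 2 to 22 counts per library. The ranges of neighbours in this order overlapped over the 8 libraries, from 153.1 to 613.4 FPKM for CHS7 and from 143.9 to 328.0 FPKM for IFS1, with the exception of CHS6, whose highest library (0.910 FPKM) lay below the lowest of CHS9 (3.61 FPKM). The FPKM of CHS1 refer to a gene of 3355 bases, against 1303 to 2150 bases for the other 8, so that its level relative to them depends on that annotated length. The 6 chalcone synthase genes belong to a family of close copies. The labels do not say how reads that fit several copies were counted, so the level of any single copy is uncertain. The same limit applies to IFS1 and IFS2 where reads fit both, which was not checked.

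**Figure D1:**
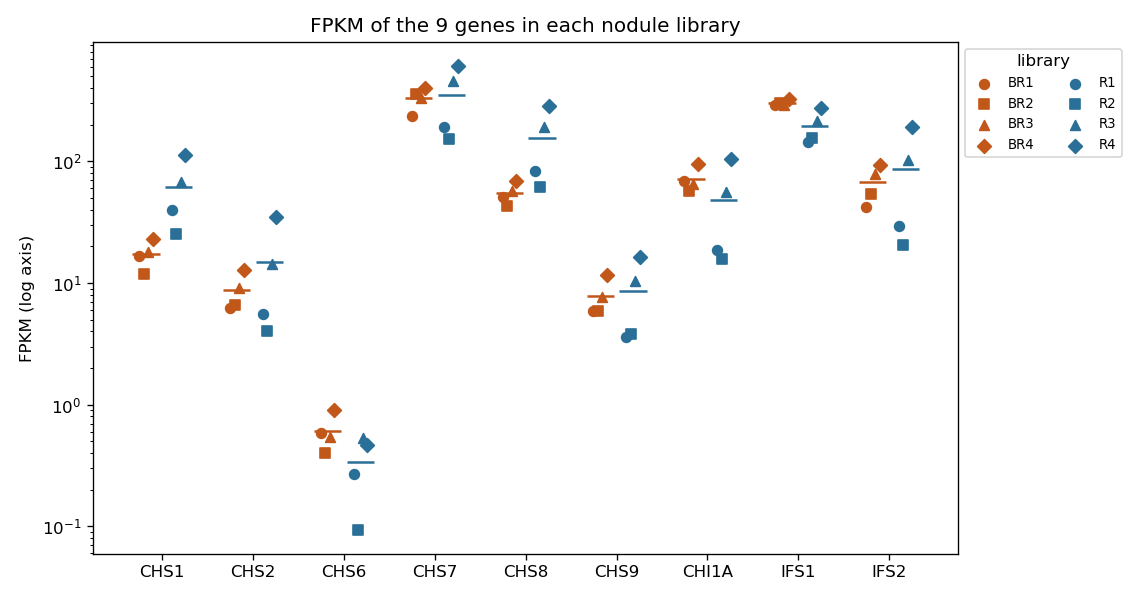
Each point is the deposited FPKM of a gene in one library, on a log axis, with BR libraries to the left in orange and R libraries to the right in blue, and bars at the group means. CHS1 has all BR points (up to 23.04 FPKM) below all R points (from 25.4 FPKM), IFS1 has all BR points above all R points, and within R the points of R1 and R2 lie below those of R3 and R4 for all 9 genes.

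With Bac.B added, 2 of the 9 genes fell and none rose: CHS1 was 3.997-fold and CHS8 3.20-fold lower in BR. That is 22.2% of the members, where 18.3% of all tested genes were called in either direction, 10.3% lower and 7.98% higher. Calls are at a Benjamini-Hochberg adjusted p below 0.05 over all 29508 tested genes, from edgeR's quasi-likelihood fit. The share of members called is near that background. None rose at an unadjusted p below 0.05 either, nor in DESeq2 or limma-voom; limma on log2(FPKM + 1) above a mean FPKM of 1 called 1 gene higher, IFS1. Among the 7 genes that did not pass, CHS2, CHS7, CHS9 and IFS2 had negative and CHS6, CHI1A and IFS1 positive log2 fold changes. The median log2 fold change was -0.32 over the 9 genes and -0.02 over all tested genes.

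CHS1 had 16.8, 11.97, 18.1 and 23.04 FPKM in BR1 to BR4, against 39.5, 25.4, 67.9 and 111.9 FPKM in R1 to R4. All 4 BR libraries lay below all 4 R libraries, and R3 and R4 were the highest. The log2 fold change of BR over R was -1.999 (SE 0.41; edgeR adjusted p = 0.0113). It kept its direction and passed at 0.05 in each alternative of sample, scaling or tool, including R3 and R4 left out, where it was -1.09 (edgeR adjusted p = 0.0316), and R1 and R2 left out, where it was -2.53.

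CHS8, one of the copies known for high expression in soybean seed, had 51.1, 43.3, 57.7 and 69.2 FPKM in BR1 to BR4, against 82.8, 62.1, 192.1 and 284.0 FPKM in R1 to R4. The groups overlapped in FPKM, since BR4 was above R2, but not in TMM-scaled CPM, where BR ranged from 71.3 to 112.4 and R from 116.0 to 528.7. On the log2 scale BR over R was -1.68 (SE 0.43; edgeR adjusted p = 0.0245). This call was kept without R1 or R2 alone. With BR1, BR2, BR3, BR4, R3 or R4 left out, the edgeR adjusted p lay between 0.0510 and 0.0668. The log2 fold change was -1.80 to -1.58 without a BR library, -1.58 without R3 and -1.20 without R4. Calls over all tested genes also fell in these fits, from 18.3% to between 9.55% and 14.6%. Without R1 they fell to 13.1% as well, yet CHS8 kept its call there (edgeR adjusted p = 0.0252). Without R2 they rose to 24.4%. The smaller group and dependence on a single library therefore cannot be told apart. Without R3 and R4 the log2 fold change was -0.58 (edgeR adjusted p = 0.113), and limma on log2(FPKM + 1) gave -1.23 (adjusted p = 0.0927). Groups did not overlap in CPM for 2 of the 9 genes, CHS1 and CHS8, and for 24.5% of all tested genes.

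CHS7, the other copy known for high expression in seed, had 236.6, 361.3, 329.5 and 400.6 FPKM in BR1 to BR4, against 190.5, 153.1, 457.8 and 613.4 FPKM in R1 to R4. The BR libraries lay between the R libraries, R1 and R2 below all of them and R3 and R4 above. BR over R gave a log2 fold change of -0.28 (SE 0.40; adjusted p in edgeR = 0.659). Its sign was not settled: it was 0.14 without R4 alone, and 0.11 with all 8 libraries in limma on log2(FPKM + 1).

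The 3 scarce chalcone synthase genes did not pass the test. CHS2 had 6.21 to 12.9 FPKM in BR and 4.05 to 35.2 FPKM in R (log2 fold change -0.95, SE 0.585; edgeR adjusted p = 0.280). CHS9 had 5.93 to 11.7 FPKM in BR and 3.61 to 16.3 FPKM in R (log2 fold change -0.32, SE 0.46; edgeR adjusted p = 0.659). CHS6 had 13, 10, 13 and 22 counts in BR1 to BR4, against 6, 2, 11 and 10 counts in R1 to R4 (log2 fold change 0.64, SE 0.51; edgeR adjusted p = 0.402). In all 3 the groups overlapped. Without R4 the log2 fold change was -0.04 for CHS2 and 0.22 for CHS9.

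CHI1A, which supplies the flavanone substrate of isoflavone synthase, had 68.5, 57.6, 64.9 and 95.1 FPKM in BR1 to BR4, against 18.5, 15.7, 56.0 and 103.9 FPKM in R1 to R4. R1 and R2 were the lowest of the 8 libraries and R4 the highest. On the log2 scale BR over R was 0.37 (SE 0.52; edgeR adjusted p = 0.651). Without R3 and R4, the higher R libraries, it was 1.87 (edgeR adjusted p = 0.00304), and without R1 and R2, the lower ones, it was -0.33. The choice of libraries sets the direction of both shifts.

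IFS1 had 292.4, 302.9, 289.9 and 328.0 FPKM in BR1 to BR4, against 143.9, 155.5, 214.8 and 275.6 FPKM in R1 to R4. The FPKM of all 4 BR libraries were above those of all 4 R libraries, but after TMM scaling R4, at 632.5 CPM, fell within the BR range of 570.5 to 656.8 CPM. On the log2 scale BR over R was 0.43 (SE 0.21; edgeR adjusted p = 0.176), and 0.62 when libraries were scaled by their totals alone (edgeR adjusted p = 0.0634). TMM factors ranged from 1.05 to 1.10 for BR and from 0.913 to 0.951 for R, and without them the median over all genes was 0.18 in place of -0.02.

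IFS2, which catalyses the same step as IFS1, had 42.3, 53.5, 78.9 and 93.9 FPKM in BR1 to BR4, against 29.3, 20.7, 102.0 and 191.5 FPKM in R1 to R4. The BR libraries again lay between R1 and R2 below and R3 and R4 above. On the log2 scale BR over R was -0.55 (SE 0.60; edgeR adjusted p = 0.558), and it was 0.23 without R4 and 0.12 in limma on log2(FPKM + 1).

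The outcome of the comparison depended on which R libraries entered it. Without R1 and R2, 6 of the 9 genes were called lower (CHS1, CHS2, CHS7, CHS8, CHS9 and IFS2), where 16.4% of all genes were called lower, 16.7% higher and 33.2% in either direction. Without R3 and R4, 3 were called higher (CHI1A, IFS1 and IFS2) and 1 lower (CHS1), where 5.35% of all genes were called higher, 6.16% lower and 11.5% in either direction. IFS2 passed in opposite directions in these fits, at -1.30 (edgeR adjusted p = 0.0154) and 1.23 (edgeR adjusted p = 0.0419). CHS1 alone of the 9 was called in the same direction in both. R1 and R2 lay below R3 and R4 for all 9 genes, so leaving out either pair moves each member in a set direction. Leaving out a pair also takes out part of the spread within R on which the p-values rest. These calls are therefore no separate test of the members.

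**Figure D2:**
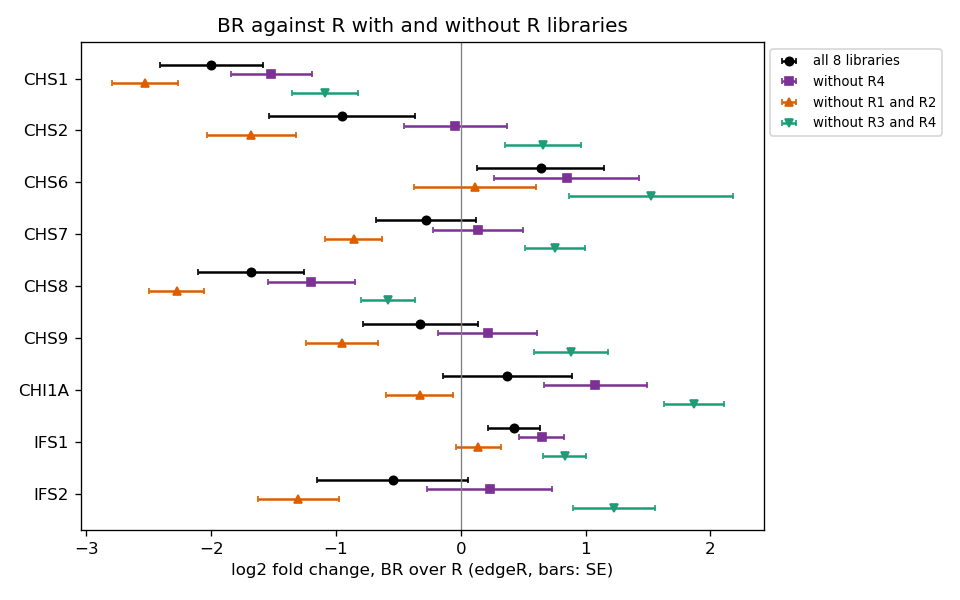
Log2 fold changes of BR over R with their SE from edgeR, for all 8 libraries and with R libraries left out. CHS1 stays below 0 throughout, at -1.999, -1.52, -2.53 and -1.09 from top to bottom, whereas IFS2 passes from -1.30 without R1 and R2 to 1.23 without R3 and R4.

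For all 9 genes the R libraries were further apart than the BR libraries. The SD of log2 CPM had a median of 0.38 in BR and 1.01 in R over these genes, against 0.26 in BR and 0.33 in R over all tested genes. In BR 2 of the 9 genes, CHS2 and IFS2, lay above the 80th percentile of this SD over all tested genes, and in R 8 of 9 did. The exception in R was IFS1, with an SD of 0.42; in BR its SD was 0.08, at the 5.57 percentile of all genes. IFS2 spanned 2.16-fold from its lowest to its highest CPM in BR and 9.24-fold in R, while IFS1 spanned 1.15-fold in BR and 1.86-fold in R. R1 and R2 lay below R3 and R4 for all 9 genes, and R4 was the highest of the 8 libraries for 7 of them. In BR, BR4 was the highest of the group for all 9. Over all genes R1 and R2 stood apart from R3 and R4 as well, whereas BR4 lay within the range of the other BR libraries on the first principal component and on the second. Pearson's r of a gene's log2 CPM with the second principal component was 0.95 for CHI1A, 0.91 for CHS6, 0.89 for IFS1 and 0.77 for IFS2, and with the first it was 0.96 for both CHS1 and CHS8 (8 libraries; the members are themselves among the genes behind the components). The part of this library difference in the results was not tested.

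**Figure D3:**
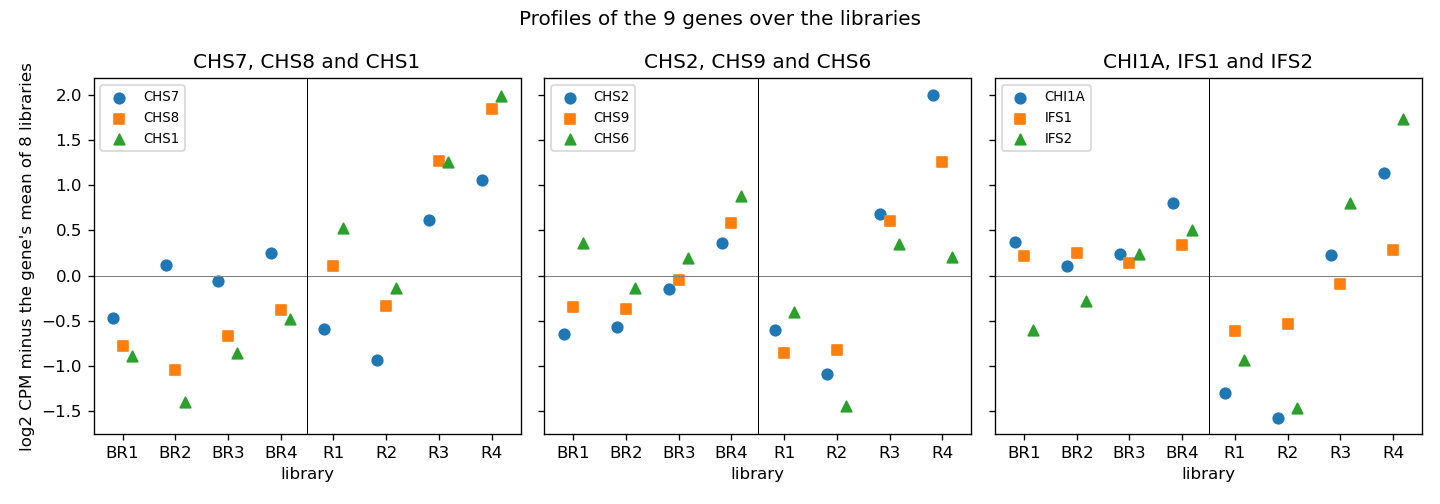
Each point is a gene's log2 CPM in a library minus that gene's mean over the 8 libraries, with the BR libraries on the left of each panel. CHS1 and CHS8 lie below 0 in all BR libraries, and the points of R1 and R2 lie below those of R3 and R4 for all 9 genes.

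The chalcone synthase copies were used in different proportions in the groups. CHS7 made up on average 78.5% ± 4.04 in BR and 60.02% ± 1.90 in R of the summed FPKM of the 6 copies (SD, n = 4 each), a difference of 18.5 percentage points. By library its share was 74.6%, 84.1%, 78.0% and 77.3% in BR1 to BR4, against 59.1%, 61.6%, 61.6% and 57.8% in R1 to R4. CHS8 took 16.1%, 10.1%, 13.6% and 13.4% in BR1 to BR4, against 25.7%, 25.0%, 25.9% and 26.8% in R1 to R4. CHS1 took 4.21% ± 1.05 in BR and 10.5% ± 1.30 in R; as shares of raw counts, not divided by gene length, the means were 8.68% in BR and 19.97% in R. The shares of CHS7, CHS8, CHS1 and CHS6 did not overlap between the groups. Each of these 4 gave p = 0.0286 in an exact two-sided permutation test, the lowest value possible with 4 libraries a group. Adjusted over the 7 shares tested, that is p = 0.05 in this exact permutation test, which equals the threshold and is not below it. With shares of raw counts, and without BR2, it was 0.04 for these 4 shares, and without any 1 of the R libraries it was 0.0667 for CHS7, CHS8 and CHS1 and 0.1 for CHS6 (exact permutation tests). The shares add up to a fixed total, so these 4 are not separate results. The separation of CHS6 rests on few reads. Its lowest BR share was 0.0926% (BR2, 10 counts) and its highest R share 0.0838% (R1, 6 counts).

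The ratio of CHS8 to CHS7 varied little within R, where levels varied widely. The summed FPKM of the 6 genes was 322.3, 248.5, 743.2 and 1061 in R1 to R4, a 4.27-fold range, and the ratio of CHS8 to CHS7 in the same libraries was 0.435, 0.406, 0.420 and 0.463. In BR the sum was 317.3, 429.5, 422.6 and 518.4, a 1.63-fold range, and the ratio was 0.216, 0.120, 0.175 and 0.173. BR1 and R1 had nearly the same sum, 317.3 and 322.3 FPKM, and ratios of 0.216 and 0.435. The ratio of CHS1 to CHS7 was 0.0331 to 0.0712 in BR and 0.148 to 0.207 in R. With R1 and R2 left out the share of CHS7 differed by 18.8 percentage points and with R3 and R4 left out by 18.1 points. The size of this difference, unlike the level of CHS7, thus changed little with the choice of R libraries. Each of these fits gave p = 0.0667 in the exact permutation test, which cannot fall below 0.05 with so few libraries. Reads shared by close copies could alter these ratios, and the labels do not say how the counting treated such reads.

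**Figure D4:**
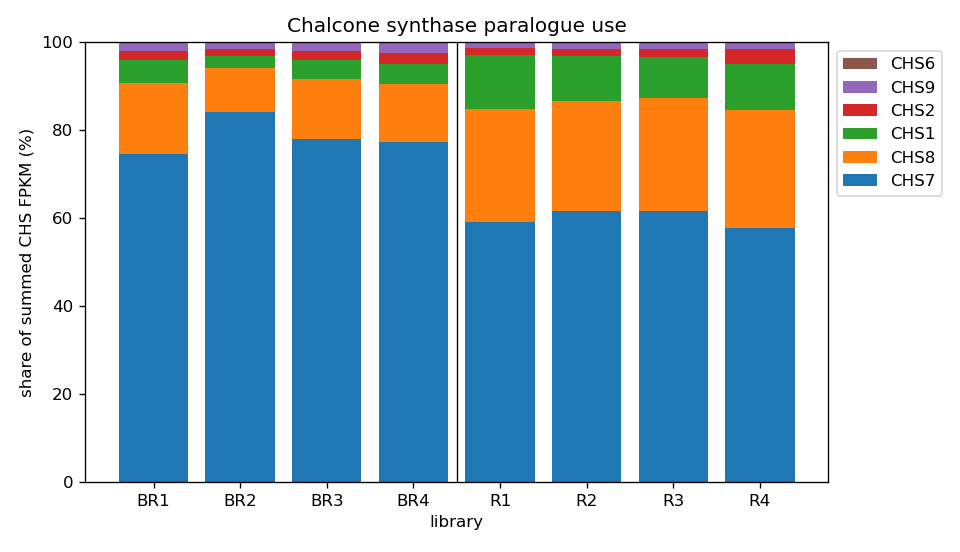
Stacked shares, in percent, of the 6 chalcone synthase genes in their summed FPKM in each library, BR on the left of the line and R on the right. CHS7 (bottom) holds 74.6% to 84.1% in BR and 57.8% to 61.6% in R, and CHS8 (above it) 10.1% to 16.1% in BR and 25.0% to 26.8% in R, while CHS6 is too scarce to be seen.

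The shares of CHS2 and CHS9 did not pass the test. CHS2 took 2.04% ± 0.395 in BR and 2.15% ± 0.789 in R (p = 0.857 in the exact permutation test, n = 4 each). CHS9 took 1.83% ± 0.357 in BR and 1.40% ± 0.195 in R (p = 0.114 in the exact permutation test, n = 4 each). CHS9 and CHS1 carry consecutive identifiers on chromosome 8. The ratio of CHS9 to CHS1 was 0.353 to 0.507 in BR and 0.0914 to 0.154 in R, with no overlap. This restates the lower CHS1 (log2 fold change -1.999) beside CHS9 (-0.32, not called) and is no separate result. The share of all gene pairs whose ratios separate the groups was not computed, and reads shared by close copies could alter the ratio. Of the paired isoflavone synthases, IFS2 made up 12.6%, 15.0%, 21.4% and 22.2% of the summed FPKM in BR1 to BR4, against 16.9%, 11.7%, 32.2% and 41.0% in R1 to R4. The groups overlapped, and the difference of -7.63 percentage points did not pass (p = 0.343 in the exact permutation test, n = 4 each). IFS2 took its largest shares in R3 and R4, where its own level was highest. Reads that fit both IFS1 and IFS2 could alter these shares.

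The levels of CHI1A and IFS1 relative to CHS7 also differed by library. CHI1A stood at 0.160 to 0.289 of the CHS7 FPKM in BR and at 0.0974 to 0.169 in R. IFS1 stood at 1.24, 0.839, 0.880 and 0.819 of the CHS7 FPKM in BR1 to BR4, against 0.755, 1.02, 0.469 and 0.449 in R1 to R4. Both ratios overlapped between the groups, and these are ratios of deposited FPKM with no test. They refer to CHS7 alone, which on average held 78.5% of the summed chalcone synthase FPKM in BR and 60.02% in R. Ratios to that sum were not computed, so the overlap is no result about the whole chalcone synthase step.

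Co-variation over the 8 libraries is given as a description. Over the 36 pairs of the 9 genes, Pearson's r of log2 CPM had a median of 0.68 and ranged from -0.20 (CHS1 with IFS1) to 0.98 (CHS1 with CHS8). Over all pairs of tested genes, 0.92% had an r of at least 0.9, whereas 8 of the 36 member pairs did. These 8 pairs share genes and are not separate results. In R, 8 of the 9 members were above the 80th percentile of SD. A background of genes with a like spread was not computed, so a closer link between members was not tested. Some sets of genes were picked out after these values were seen. Pooled r includes the difference between the groups, so genes with like fold changes tend to correlate. CHS2, CHS7, CHS9 and IFS2 correlated with each other at 0.93 to 0.97. CHI1A and IFS1 correlated at 0.94, and CHS1 and CHS8 at 0.98. The sets were not sharply apart: CHI1A correlated at 0.85 with both CHS9 and IFS2 and at 0.86 with CHS6, and CHS2 at 0.83 with CHS8. CHS1 and CHS8 correlated with IFS1 at only -0.20 and -0.04. When each gene's group means were removed, so that only differences within BR and within R remained, the 36 values ranged from 0.69 to 0.99 with a median of 0.94, and CHS8 with IFS1 was then 0.93. CHI1A with CHS8, at 0.27 in pooled r, was then 0.99, against 0.97 for CHI1A with IFS1. These values rest largely on R: over the 4 libraries of each group, too few for more than a description, the median was 0.76 in BR (lowest 0.10, CHS1 with CHS7) and 0.98 in R (lowest 0.72), and CHS8 with IFS1 was 0.42 in BR and 0.96 in R. All values share the same 8 libraries and their depth. Without R3 and R4 the pooled median was 0.82, and without R1 and R2 it was 0.66.

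**Figure D5:**
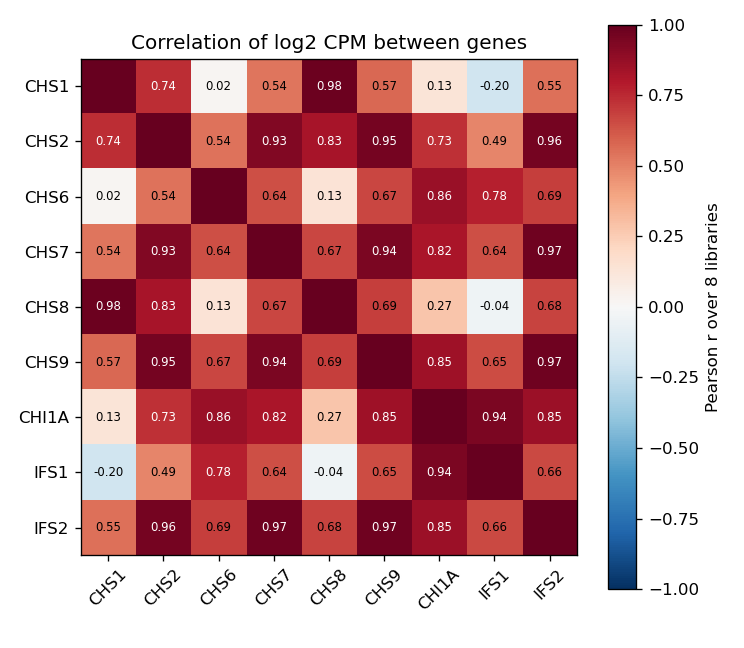
Pearson's r of TMM-scaled log2 CPM between each pair of the 9 genes over the 8 libraries, with a colour scale from -1 to 1. CHS1 and CHS8 correlate at 0.98 with each other and at -0.20 and -0.04 with IFS1, while CHS7, CHS9 and IFS2 correlate at 0.94 to 0.97.

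Some of the members were among each other's nearest genes in the whole transcriptome. Among the 29507 other tested genes, IFS2 ranked 2 in likeness to CHS7 (r = 0.974) and also 2 in likeness to CHS9, and CHS8 ranked 47 in likeness to CHS1. IFS1 ranked 49 in likeness to CHI1A but 16765 in likeness to CHS1. Outside the 9, the genes most like the mean profile of all 9 were Glyma.12G007800.Wm82.a2.v1 (r = 0.982), Glyma.17G019400.Wm82.a2.v1 (r = 0.981) and Glyma.19G151200.Wm82.a2.v1 (r = 0.978), and 30 of 29499 genes reached 0.95. Those most like the mean of IFS1 and IFS2 were Glyma.04G107500.Wm82.a2.v1 (r = 0.993), Glyma.08G072200.Wm82.a2.v1 (r = 0.985) and Glyma.17G046900.Wm82.a2.v1 (r = 0.979), all over 8 libraries. The sources used here do not annotate these identifiers.

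CHS1 and CHS9 lie in a stretch of chromosome 8 where, in the RefSeq annotation of assembly Glycine_max_v4.0, further chalcone synthase genes are their neighbours (CHS5, CHS3, CHS1 and CHS9 follow each other). The sources used here do not link those neighbours to deposited identifiers. Within 1000 serial numbers of CHS1 or CHS9 the tables hold 17 other identifiers, of which 12 were tested, 1 was called higher and 3 lower in BR, where 7.98% of all tested genes were called higher, 10.3% lower and 18.3% in either direction. The identifier just before CHS1, Glyma.08G109300.Wm82.a2.v1, had 0.450, 1.62, 1.75 and 2.56 FPKM in BR1 to BR4, against 6.22, 6.38, 8.26 and 17.1 FPKM in R1 to R4. The BR libraries all lay below the R libraries (log2 fold change -2.76, SE 0.48; edgeR adjusted p = 0.00588). Glyma.08G110100.Wm82.a2.v1 was higher, with 2.92 to 9.15 FPKM in BR and 0.815 to 1.90 FPKM in R (log2 fold change 1.98, SE 0.36; edgeR adjusted p = 0.00715).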

How the data were processed

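RNA was extracted from nodules with Trizol and sequenced from VAHTS Universal kit libraries, per the labels' protocols; the sources used here do not say if strand was kept. The authors deposited raw read counts per gene, and FPKM, with 1 column per library. The submitters' processing notes list HTSeq 0.6.0, HISAT2 2.1.0, Bowtie2 2.2.3, TopHat2 and CASAVA, with no role for any of them. The deposited FPKM equal the counts divided by library total and by 1 length per gene, within 0.1%, and so carry no composition factor. No source used here names the genome build; the identifiers end in Wm82.a2.v1.

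The members and lists were chosen with earlier results of these data known. Names follow the order in which genes and identifiers were listed. The RefSeq table (Glycine_max_v4.0) matched 0 identifiers, but places all 9 symbols on the chromosome of the member's identifier. It lists IFS1 and IFS2 as synonyms of each other, so these names are used by chromosome. Lists of other pathway genes and of tissue markers rest on gene descriptions and could not be applied. Named genes were the 9 members, the 3 genes most like each mean profile, and chromosome 8 neighbours.

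The tests on counts used edgeR 4.0.16 under R 4.3.3 (filterByExpr, minimum count 10 and minimum total 15; TMM; quasi-likelihood test without covariates; Benjamini-Hochberg over all tested genes, threshold 0.05). Each SE is the fold change over the root of its F statistic. Correlations used log2 CPM with a prior count of 2. The fit was tested on simulated data. Shares were tested by exact permutation over the 70 splits (two-sided). Alternatives were DESeq2 1.42.0, voom and FPKM tests in limma 3.58.1, other scalings, no filter, a replicate block and libraries left out.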

Additional observations from a re-analysis of the deposited data

Results flagged for a closer look

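For the FPKM of the 9 genes and the 7 shares, a library standing far from the other 3 of its group was looked for, in 32 groups of 4 in all; chance alone gives about 1 in 20. The share of CHS2 in the summed chalcone synthase FPKM was 3.32% in R4, where R1 to R3 lay between 1.63% and 1.92%, and this was the only such library.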

How the results depend on the processing

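Without 1 library, the members called lower in BR numbered 1 to 2 and those called higher 0; all genes called numbered 2848 (without BR3) to 7333 (without R2). The log2 fold changes were then -2.25 to -1.52 for CHS1, -1.94 to -1.20 for CHS8 (edgeR adjusted p 0.00559 to 0.0668), -0.53 to 0.14 for CHS7, -0.58 to 0.22 for CHS9, -0.87 to 0.23 for IFS2, -1.26 to -0.04 for CHS2, 0.08 to 1.08 for CHI1A, 0.32 to 0.65 for IFS1 and 0.34 to 0.92 for CHS6. The changes of sign of CHS7, CHS9 and IFS2 came without R4. At an adjusted p below 0.01, 0 members and 1540 genes were called, CHS1 (-1.999) and CHS8 (-1.68) no longer among them. The FPKM tests in limma called 1 member lower, CHS1; with a pseudocount of 1, with 0.1, and with 1 above a mean FPKM of 1, the log2 difference was -1.23, -1.25 and -1.23 for CHS8, 0.11, 0.12 and 0.11 for CHS7, 0.065, 0.10 and 0.065 for CHS9 and 0.12, 0.12 and 0.12 for IFS2. In the last of these IFS1 passed at 0.66 (limma adjusted p = 0.0419), 1 member called higher, and CHS6 fell under the minimum. Without R1 and R2, 6 members were lower among 10237 called genes, with CHS2 at -1.68, CHS7 at -0.86, CHS9 at -0.95, IFS2 at -1.30 and CHI1A at -0.33. Without R3 and R4, 3 were higher and 1 lower among 3554, with CHS2 at 0.66, CHS7 at 0.76, CHS8 at -0.58, CHS9 at 0.88, CHI1A at 1.87, IFS1 at 0.83 and IFS2 at 1.23. R1 and R2 lay below R3 and R4 for all 9 genes, which sets the direction of these changes. The cause of that difference between R libraries was not tested. DESeq2, voom, the other scalings, no filter and the replicate block called the same 2 members.

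With shares of raw counts, the differences were -11.3 points for CHS1, 21.75 for CHS7, -11.2 for CHS8, 0.0815 for CHS6 and 0.559 for CHS9, each with an adjusted exact permutation p of 0.04, because CHS9 also reached the smallest p, and 0.0820 for CHS2. Without 1 library the share differences were -6.80 to -5.76 points for CHS1, 16.6 to 19.8 for CHS7, -13.5 to -11.5 for CHS8, 0.0726 to 0.104 for CHS6, 0.288 to 0.579 for CHS9, -0.285 to 0.278 for CHS2 and -12.2 to -2.45 for IFS2. Without R3 and R4 they were 0.356 for CHS2 and 3.505 for IFS2. The wider chalcone synthase denominator was not run, since those genes could not be linked. The median pairwise r of 0.68 was 0.62 as Spearman's rho, 0.82 without R3 and R4 and 0.66 to 0.75 without 1 library. Over all tested genes, same-numbered libraries deviated together at r = 0.065, 0.086, -0.084 and 0.09, so the numbers were not taken as pairs. With the replicate block 4633 genes were called, CHS1 at -1.82 and CHS8 at -1.44. The SE of each member was smaller with the block, from 0.41 to 0.23 for CHS1 and from 0.60 to 0.38 for IFS2. CHI1A was then at 0.76 and IFS2 at -0.08, neither of them called. Pairing among the members alone was not tested. The paired exact sign-flip test of the shares cannot pass with 4 pairs. CHS6 had 2 to 22 counts per library; how far depth limits its test was not compared.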

Other observations

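The mean profile of CHS1 and CHS8, a pair chosen after its values were seen, had more close genes than the other profiles computed: 427 of 29499 other tested genes correlated with it at 0.95 or more over the 8 libraries, against 30 for the mean of all 9 genes and 26 for the mean of IFS1 and IFS2. CHS1 and CHS8 each correlated at 0.96 with the first principal component, which held 48.6% of the variance over all tested genes. They correlated at 0.98 with each other, against 0.66 for IFS1 with IFS2, so the profiles are not of like kind. The counts are therefore no trait of the pair. No such profile was computed for the other members alone.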
